A study of Mus musculus with 6 samples.

Results

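Transcripts of 10 genes for TGF-β ligands, receptors and proteins of its latent stores were followed in the lungs of endotoxaemic mice with and without recombinant human thrombomodulin (rhTM). The genes were listed by name, with no threshold on their values, and are Tgfb1, Tgfb2, Tgfb3, Tgfbr1, Tgfbr2, Tgfbr3, Ltbp1, Ltbp2, Thbs1 and Tgfbi. They were 10 of 22815 genes matched to a probe and 10 of 16362 genes tested. Male C57BL6 mice of 10 weeks were starved for 16 h and injected i.p. with the bacterial endotoxin LPS at 20 mg·kg−1. One group then received rhTM at 30 mg·kg−1 and the other saline, at 3 h and once more at 24 h, and lungs were collected at 30 h (n = 3 mice per group, 1 array each). All 6 mice had received LPS, so these arrays hold no unchallenged lung and the change caused by LPS itself was not measured here. The labels and the microarray text call the control saline, whereas the general animal methods call it PBS. rhTM is the soluble extracellular part of a human endothelial receptor that binds thrombin.

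TGF-β is secreted bound to its own propeptide, and latent TGF-β-binding proteins tether that complex to the matrix until integrins, proteases or thrombospondin-1 release the active ligand. The ligand binds the type II receptor, which phosphorylates the type I receptor, and SMAD proteins carry the signal to the nucleus. In the lung the pathway is known for its part in alveolar development, epithelial and endothelial permeability, repair and fibrosis.

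Each value below is the processed signal of a gene's brightest probe divided by the 75th percentile of all signals on that array, so that 1 equals that percentile. Values of different genes come from different probes and are not set against each other. The 10 genes were covered by 14 probes, and all 14 were well above background on all 6 arrays, with 0 saturated. Between 36243 and 40647 of 56605 probes were well above background per array. Saline replicate 1, one of the arrays discussed next, had the most such probes and a slope of its spike-in controls of 0.83, beside 1.07 to 1.09 on the others. Markers of alveolar type 2 cells (10 of 10 tested), endothelium (10 of 10) and airway cells (8 of 8) were well above background on all 6 arrays.

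In the table of processed values that the authors deposited beside the scanner output, the arrays called saline replicate 1 and rhTM replicate 2 are exchanged. The table column of each equalled the scanner output of the other at 99.9% of 56207 probes within 0.1%, and both arrays sat at the same position of their slides. The sources used here do not settle which assignment is right, so the fold change of each gene is given as the scanner files assign the arrays and then as the authors' table does. The arrays lay on 2 slides. As the scanner files assign them, slide 1 carried 2 arrays of each group and slide 2 carried 1 of each. As the table assigns them, slide 2 carried only rhTM arrays, so rhTM and slide can be separated there only through rhTM replicate 1. In bulk lung RNA, fewer cells of a type and less RNA per cell cannot be told apart.

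None of the 10 genes passed the test between rhTM and saline. Tgfb1 and Tgfb2 had lower means with rhTM (log2 fold changes of -0.28 and -0.36) and Thbs1 and Ltbp2 higher means (0.31 and 0.17), with standard errors from 0.19 to 0.35. In the scanner files 0 of 10 had a limma adjusted p below 0.05 (adjusted p = 0.9999 for each), against 0.0% of all genes tested. In the table it was again 0 of 10 (adjusted p from 0.320 to 0.948), against 0.0% of 16312 genes. An unadjusted p below 0.05 was reached by 305 of 16362 genes (1.86%) in the scanner files and by 2278 of 16312 (14.0%) in the table, and by 0 and 1 of the 10 genes. The limits of the 95% intervals exclude a doubling for 9 of 10 genes and a halving for 9 of 10 under either assignment, the exceptions being Thbs1 for a doubling and Tgfb2 for a halving. At the fold and unadjusted p that the methods name for calling genes, the methods' t-test called 0 of the 10 in the scanner files. It called 0.00611% of all genes there, namely Rgs5, a marker of pericytes that is named here for this call. The log2 fold change of Rgs5 was 1.30, and 0.53 in the table (limma adjusted p = 0.651), where the groups overlapped. The 10 genes had a median log2 fold change of 0.08, with 6 higher and 4 lower, beside 0.0026 over all genes. In the table this was -0.08, with 4 higher and 6 lower, beside -0.02.

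**Figure D1:**
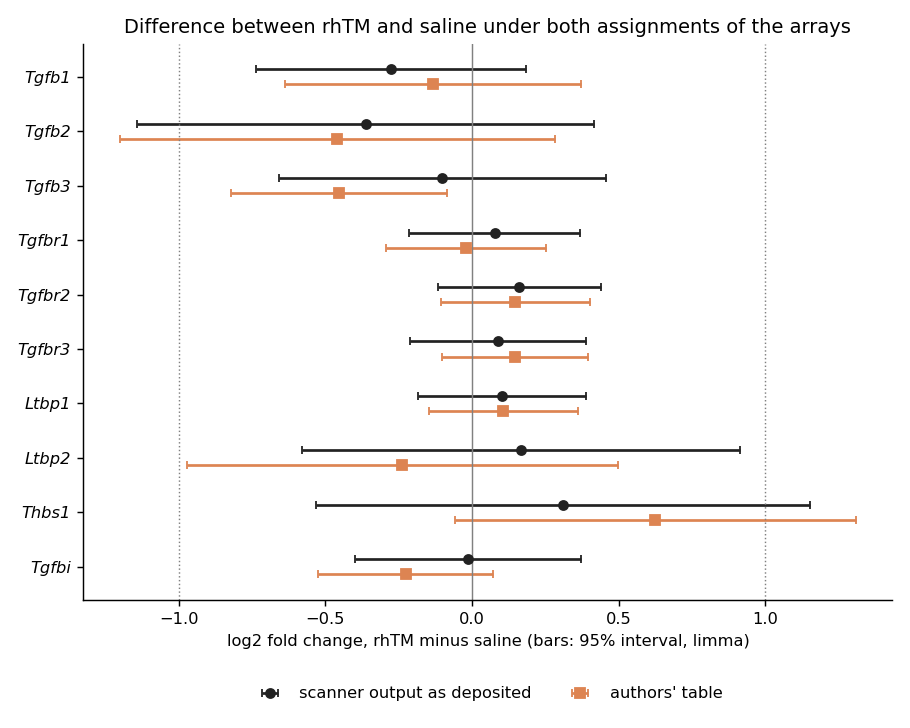
Log2 fold change of each gene, rhTM minus saline, on the horizontal axis, with 95% limma intervals as bars, for the scanner output (black circles) and the authors' table (orange squares); dotted lines mark a halving and a doubling. Tgfb3 in the table is the only gene whose interval leaves out 0 (-0.82 to -0.09).

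Among the ligands, Tgfb1, the form made most widely by immune and stromal cells, gave 2.34, 2.66 and 1.98 on saline arrays 1 to 3 and 1.51, 2.01 and 2.28 on rhTM arrays 1 to 3. Its mean was 2.33 ± 0.337 (SD, n = 3) with saline and 1.93 ± 0.386 with rhTM. The rhTM replicate 1 lay below every saline array and the other rhTM arrays lay among them. The log2 fold change was -0.28 (95% interval -0.74 to 0.18, exact permutation p = 0.3), and in the table it was -0.13 (limma adjusted p = 0.784). A second, dimmer probe had the same highest and lowest array and a log2 fold change of -0.51.

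Tgfb2, a ligand needed in heart and lung development, gave 1.80, 2.30 and 1.35 on the saline arrays and 0.894, 1.99 and 1.47 on the rhTM arrays. Again rhTM replicate 1 was lowest and saline replicate 2 highest, and the groups overlapped. Its log2 fold change was -0.36 ± 0.33 (SE), and -0.46 in the table (limma adjusted p = 0.515). Without rhTM replicate 1 it was -0.05, and -0.17 in the table. It was -0.18 without saline replicate 2, -0.56 without saline replicate 3 and -0.63 without rhTM replicate 2, and in the table these left-out values were -0.30, -0.68 and -0.68. The log2 fold change of Tgfb1 without rhTM replicate 1 was -0.11, and it turned to 0.070 in the table.

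Tgfb3, a ligand expressed chiefly by mesenchymal cells, gave 3.16, 3.80 and 3.40 on the saline arrays and 2.47, 4.55 and 2.93 on the rhTM arrays. The rhTM arrays held both the lowest and the highest of the 6 values, and the highest was on one of the exchanged arrays. Tgfb3 therefore differed by -0.10 log2 units in the scanner files (exact permutation p = 0.8) and -0.45 in the table (95% interval -0.82 to -0.09, limma adjusted p = 0.320). In the table all 3 rhTM values of Tgfb3 lay below the saline values, with an exact permutation p of 0.1, the smallest that 3 arrays against 3 can give. Without rhTM replicate 1 the scanner value turned to 0.09, while the table's value was -0.35.

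**Figure D2:**
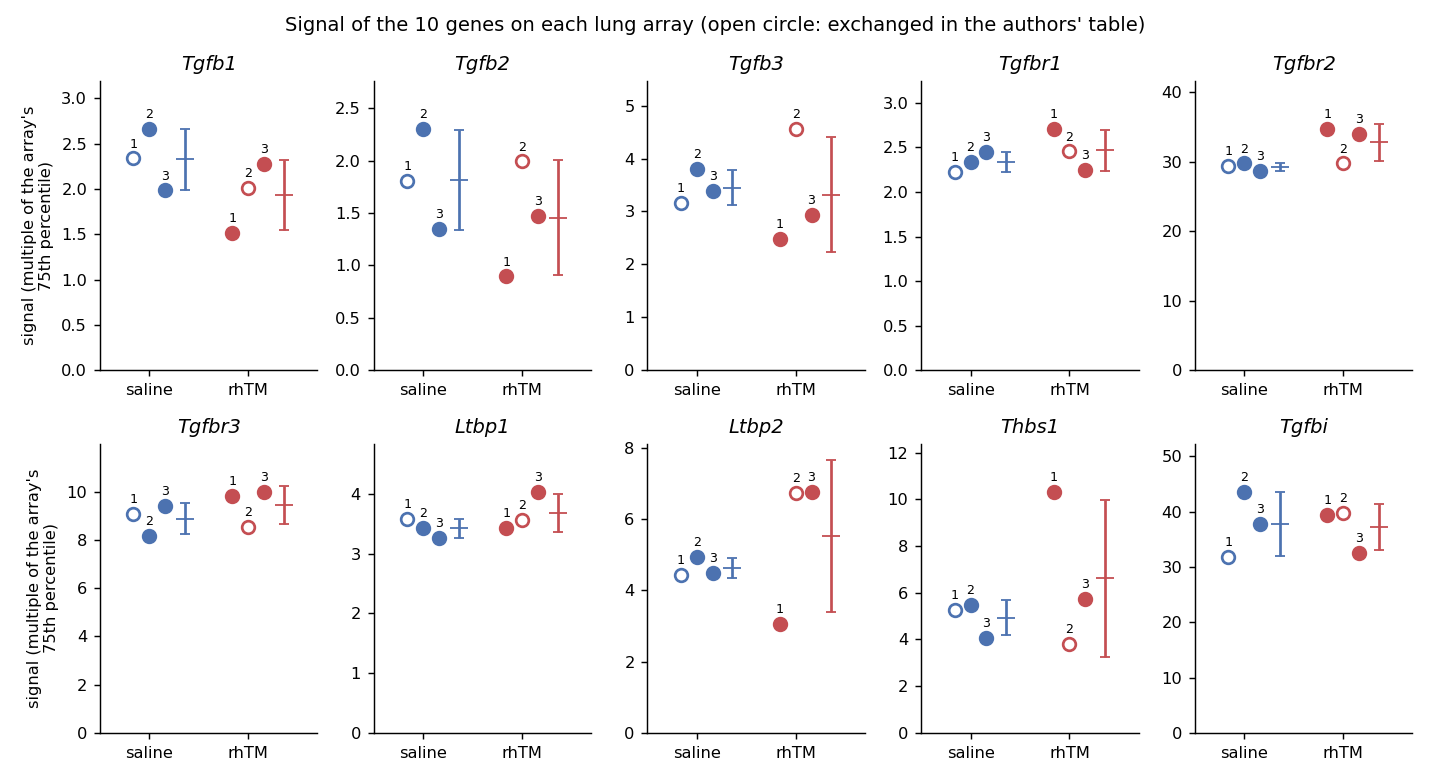
Signal of each gene's brightest probe, as a multiple of the array's 75th percentile, by group; circles are single arrays with their replicate number, open circles are the 2 arrays exchanged in the authors' table, and bars are mean ± SD (n = 3). The groups overlap for all 10 genes in the scanner files, and rhTM replicate 1 stands highest for Thbs1 at 10.3 and lowest for Ltbp2 at 3.05.

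By their brightest probes the receptors ranged over 0.27 to 0.29 log2 units across the 6 arrays, beside 0.81 to 1.36 for the ligands. Without rhTM replicate 1 these ranges were 0.14 to 0.29 for the receptors and 0.42 to 0.77 for the ligands, with Tgfb1 falling from 0.81 to 0.42, Tgfb2 from 1.36 to 0.77 and Tgfbr1 from 0.28 to 0.14. Tgfbr1, the type I receptor kinase, had means of 2.34 ± 0.113 for saline and 2.47 ± 0.230 for rhTM (log2 fold change 0.08, exact permutation p = 0.4). Its 2 probes were the only pair of a gene to differ in direction, since the dimmer one gave -0.10. Across the 6 arrays that dimmer probe ranged over 0.64 log2 units, beside 1.22 and 1.44 for the dimmer probes of Tgfb1 and Tgfb2. Without rhTM replicate 1 these ranges were 0.46, 0.66 and 0.89. In the table the brighter probe gave -0.02 (limma adjusted p = 0.948).

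Tgfbr2, the type II receptor that binds the ligand first, gave 29.3, 29.7 and 28.7 on the saline arrays and 34.6, 29.7 and 33.9 on the rhTM arrays. rhTM replicates 1 and 3 lay above every saline array, while rhTM replicate 2 equalled saline replicate 2 to 3 digits. Its log2 fold change was 0.16 (95% interval -0.12 to 0.44, exact permutation p = 0.2), and in the table it was 0.15 (limma adjusted p = 0.535). Tgfbr3, or betaglycan, a co-receptor that presents ligand to the type II receptor, had means of 8.89 ± 0.635 and 9.45 ± 0.802, a log2 fold change of 0.09, and 0.15 in the table (limma adjusted p = 0.534). Fold changes of Tgfbr2 and Tgfbr3 kept their sign under the 18 of 24 alternative settings that altered the value, from 0.10 to 0.24 for Tgfbr2 and from 0.03 to 0.20 for Tgfbr3.

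Of the latency proteins, Ltbp1, which links latent TGF-β to the matrix, gave 3.58, 3.42 and 3.26 on the saline arrays and 3.43, 3.56 and 4.03 on the rhTM arrays. Only rhTM replicate 3 lay outside the saline range. Ltbp1 gave a log2 fold change of 0.10 (exact permutation p = 0.4), and 0.11 in the table (limma adjusted p = 0.655). Without rhTM replicate 3 these were 0.033 and 0.039, and without saline replicate 3 the scanner value was 0.066.

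Ltbp2, a family member found on elastic fibres that does not itself bind latent TGF-β, gave 4.42, 4.94 and 4.49 on the saline arrays and 3.05, 6.73 and 6.76 on the rhTM arrays. None of the rhTM values fell inside the saline range, since 1 was below it and the others above it. The SD was 0.285 with saline and 2.13 with rhTM. The log2 fold change was 0.17 (95% interval -0.58 to 0.91), and its sign changed with the assignment, to -0.24 in the table (limma adjusted p = 0.730). It was 0.55 without rhTM replicate 1, -0.02 without rhTM replicate 2 and -0.02 without rhTM replicate 3, and for the table the same 3 values were 0.043, -0.22 and -0.53. In the scanner files it was -0.06 within slide 1 and 0.61 within slide 2.

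Thbs1 encodes thrombospondin-1, a matrix protein of platelet granules and injured tissue that can release TGF-β from its latent complex. It gave 5.26, 5.50 and 4.07 on the saline arrays and 10.3, 3.80 and 5.74 on the rhTM arrays. The lowest and the highest value were both from rhTM mice. Between the groups the log2 fold change was 0.31 ± 0.35 (SE; 95% interval -0.53 to 1.15), and 0.63 in the table (limma adjusted p = 0.378), where the lowest array counts as saline. Without rhTM replicate 1 it was -0.07 in the scanner files and 0.32 in the table. The second probe had the same highest and lowest array.

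The high Thbs1 value on rhTM replicate 1 coincided with a high sum of platelet markers, namely 29.1 on that array and 11.4 to 15.9 on the others. Of 10 platelet genes listed, 9 were tested and 8 were well above background on all arrays. Of the 9, 6 had their highest value on rhTM replicate 1, beside 29.8% of all genes tested. Their median deviation from the gene means on that array was 0.61 log2 units. Across the groups 3 of these 9 genes were higher and 6 lower (median log2 fold change -0.14, and -0.16 in the table with the same counts). Neutrophil markers also summed highest on rhTM replicate 1, at 1254 beside 939.7 to 1115 on the others, with 5 of 9 highest there. The macrophage sum was 339 beside 290.3 to 338, with 1 of 10 highest there. The part of RNA from these cells in the Thbs1 values was not tested.

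Tgfbi, a matrix protein named for its induction by TGF-β, gave 31.9, 43.6 and 37.8 on the saline arrays and 39.5, 39.8 and 32.5 on the rhTM arrays. The rhTM values lay within the saline range. The log2 fold change was -0.01 (95% interval -0.40 to 0.37, exact permutation p = 1.0), and -0.23 in the table (limma adjusted p = 0.441). Both slide 2 arrays were low, and in the scanner files the log2 differences within slide 1 and slide 2 were -0.03 and 0.03. Without saline replicate 2 the log2 fold change was 0.10 and without rhTM replicate 3 it was 0.08, whereas in the table these were -0.17 and -0.18.

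The spread among rhTM mice was wider than among saline mice for 9 of 10 genes, beside 66.0% of all genes tested, with Tgfbi the exception. In the table it was wider for 8 of 10, beside 70.8%, with Tgfb3 and Tgfbr3 the exceptions. rhTM replicate 1 gave the lowest of the 6 values for Tgfb1, Tgfb2, Tgfb3 and Ltbp2, 4 of 10 beside 26.6% of all genes, and the highest for Thbs1, Tgfbr1 and Tgfbr2, 3 of 10 beside 29.8%. Over all genes this array was thus the most often extreme, at 56.4%, and its highest correlation with another array was 0.988, beside 0.993 to 0.995 for the others. Saline replicate 2 was highest for Tgfb1, Tgfb2 and Tgfbi, 3 of 10 beside 20.6% of all genes. The sum of 6 mesothelial markers was also highest on saline replicate 2, at 69.0 beside 32.9 to 48.3 on the others, and each of the 6 was highest there. All 6 mesothelial markers had lower means with rhTM (median log2 fold change -0.61, and -0.71 in the table). In the table all rhTM arrays lay below the saline arrays for 5 of the 6, beside 12.0% of all genes. The same held there for 4 of 10 endothelial markers, with 1 of 10 above. In the scanner files these counts were 0. The part of these cells in the Tgfb1, Tgfb2 and Tgfb3 values was not tested.

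**Figure D3:**
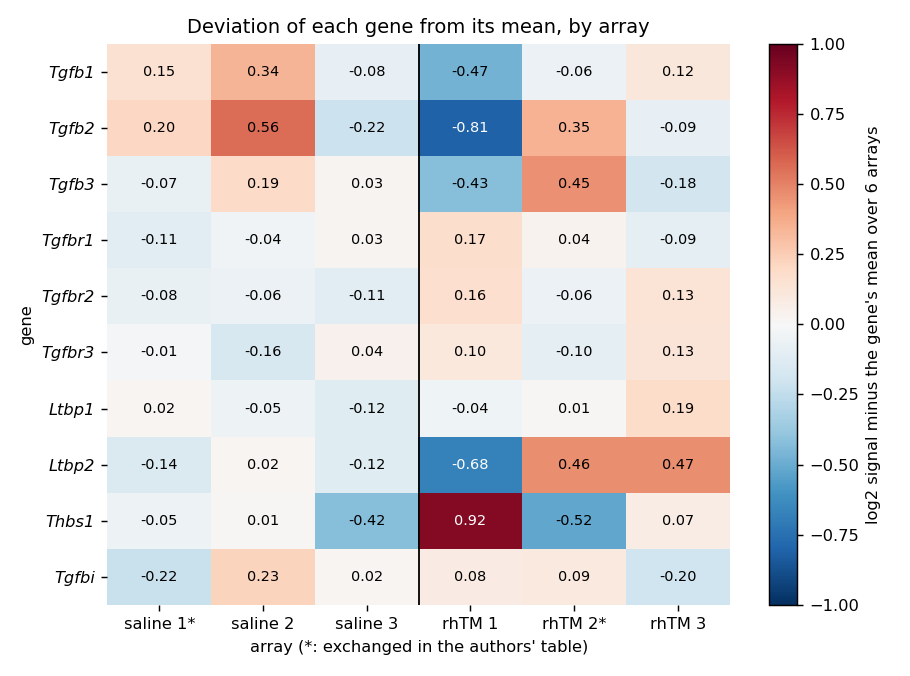
Log2 signal of each gene's brightest probe (rows) on each array (columns) minus its mean over the 6 arrays, with blue below and red above the mean. rhTM replicate 1 departs most, with -0.81 for Tgfb2, -0.68 for Ltbp2 and 0.92 for Thbs1, while the receptors and Ltbp1 stay within 0.19 of their means.

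In the scanner files 0 of 10 genes had groups without overlap, beside 2.95% of all genes with all rhTM arrays higher and 2.57% with all lower. In the authors' table none of the 10 lay higher, beside 9.68%, and 1 of 10, Tgfb3, lay lower, beside 12.0%. A slide block in the scanner files left the log2 fold changes as they were (limma adjusted p from 0.920 to 0.983). A slide block in the table sets rhTM replicate 1 alone against the 3 saline arrays, so its p-values assume that this lone array varies like the others and its values describe that mouse. It called 2.65% of all genes and 0 of the 10, with log2 differences of 1.23 for Thbs1 (limma adjusted p = 0.0526), -1.04 for Tgfb2, -0.80 for Ltbp2 and -0.65 for Tgfb3.

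The promoters of 3 genes with their lowest value on rhTM replicate 1 are shown, as RefSeq gives them on GRCm38.p6 for the 250 bases before the transcription start, read 5′ to 3′ on the gene's strand. Capitals mark the GC box GGGCGG, the TATA box TATAAA and CAGACA, the short element bound by SMAD proteins, on either strand. The regions are chr7:25686752-25687001 on the plus strand for Tgfb1, chr1:186705990-186706239 on the minus strand for Tgfb2 and chr12:84876492-84876741 on the minus strand for Ltbp2.
Tgfb1: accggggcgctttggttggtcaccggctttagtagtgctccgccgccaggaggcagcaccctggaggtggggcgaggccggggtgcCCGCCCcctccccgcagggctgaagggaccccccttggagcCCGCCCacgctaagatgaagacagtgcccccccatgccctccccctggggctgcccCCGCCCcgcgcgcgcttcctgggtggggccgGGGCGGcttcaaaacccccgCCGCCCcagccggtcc
Tgfb2: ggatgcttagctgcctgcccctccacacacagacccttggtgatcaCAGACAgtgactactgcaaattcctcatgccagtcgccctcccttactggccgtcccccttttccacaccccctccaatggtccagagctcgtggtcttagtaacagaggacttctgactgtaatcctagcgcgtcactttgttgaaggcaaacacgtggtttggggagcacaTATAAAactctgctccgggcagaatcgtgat
Ltbp2: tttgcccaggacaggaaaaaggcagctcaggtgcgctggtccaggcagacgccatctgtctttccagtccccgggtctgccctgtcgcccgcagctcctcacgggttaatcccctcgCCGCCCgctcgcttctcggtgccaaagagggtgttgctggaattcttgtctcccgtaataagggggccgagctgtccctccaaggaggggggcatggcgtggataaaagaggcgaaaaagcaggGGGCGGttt

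The Tgfb1 window was 75.2% G and C and held 5 GC boxes, and that of Ltbp2 was 61.6% G and C and held 2. The Tgfb2 window, at 53.6%, held no GC box but 1 TATA box whose first base lay 31 bases before the start, and 1 CAGACA. For 7 of the 10 genes the table gave 9 windows, and it listed none for Tgfb3, Tgfbr3 and Thbs1. A GC box was in 4 of the 9 windows, beside 32.7% of 32851 mouse promoters of that length, the TATA box in 1, beside 12.4%, and CAGACA in 3, beside 17.1%. The cyclic AMP response element TGACGTCA was in 1 window, of Ltbp1, beside 1.55%, and the AP-1 element, TGACTCA or TGAGTCA, in 0, beside 4.46%. No searched motif was in all 3 of the windows of Tgfb1, Tgfb2 and Ltbp2.

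The rest of the pathway was described by 4 lists of 66 genes, of which 65 were tested and Itgb8 was not. Of the 65, 38 had higher and 27 lower means with rhTM, and 0 were called (adjusted p = 0.9999 for each). Their median was 0.06 log2 units, and -0.03 in the table, beside 0.0026 and -0.02 for all genes. An unadjusted limma p below 0.05 was reached by 4 genes, namely Adamts1, Cd109, Fn1 and Eng, or 6.15% of the 65 beside 1.86% of all genes, and in the table by 5 genes, or 7.69% beside 14.0%. All 4 are named for their values, Eng outside the naming rule. Cd109 was tested only because its probe was well above background on all saline arrays (1 of 3 rhTM arrays), the group in which it is higher, and 3 of the 4 remain without it. Eng encodes endoglin, an endothelial co-receptor, and had a log2 fold change of -0.32 (-0.28 in the table). In 2 genes (3.08%, beside 2.95% of all genes) all rhTM arrays were above the saline arrays and in 3 (4.62%, beside 2.57%) all were below, or 2 without Cd109. In the table the counts were 6 above (9.23%, beside 9.68%) and 3 below (4.62%, beside 12.0%).

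Of 20 genes for storage and activation of latent TGF-β, 11 had higher means with rhTM (median log2 fold change 0.01, and -0.06 in the table). Adamts1, a secreted metalloprotease, gave 4.37, 4.36 and 4.46 on the saline arrays and 10.4, 4.76 and 7.79 on the rhTM arrays. All rhTM values of Adamts1 lay above the saline values (log2 fold change 0.73 ± 0.27, SE, and 0.47 without rhTM replicate 1). Its value on rhTM replicate 1 was again the highest, as for Thbs1 and for 29.8% of all genes tested. In the table it was 0.65 (limma adjusted p = 0.385) and the groups overlapped. Plau, or urokinase, which activates plasminogen, had a log2 fold change of -0.43 with overlapping groups, and 0.23 in the table. It was -0.11 without saline replicate 1, -0.72 without saline replicate 3 and -0.23 without rhTM replicate 1.

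Of 18 co-receptors, ligand traps and inhibitors, 7 had higher means (median -0.05, and -0.07 in the table). Pmepa1, a membrane protein induced by TGF-β that restrains SMAD signalling, had means of 8.27 ± 1.02 and 10.4 ± 1.54 and a log2 fold change of 0.33, with overlap (0.17 by the other assignment). Cd109, a co-receptor that promotes receptor breakdown, gave -1.03, but it was well above background on only 1 of 3 rhTM arrays, and the value was -0.20 with the normexp background correction and -0.51 in the table. Of the 4 signal transducers, 3 had higher means (median 0.07, and -0.13 in the table). Smad3, which the type I receptor phosphorylates, had a log2 fold change of 0.08. That of Zfyve9, which holds SMADs near the receptor, was -0.23 with all rhTM values below the saline values. This separation of Zfyve9 was narrow, at 0.2420 on rhTM replicate 1 and 0.2430 on saline replicate 3. The Smad3 value was 0.036 without saline replicate 3, 0.0048 without rhTM replicate 1 and 0.15 without rhTM replicate 2. In the table the Zfyve9 groups overlapped (-0.07) and the Smad3 groups did not (0.14).

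Of 23 transcripts that TGF-β raises in many cells, 17 had higher means with rhTM (median log2 fold change 0.17, and 0.12 in the table with 14 higher). Fn1, fibronectin, gave 19.6, 22.2 and 19.7 on the saline arrays and 22.6, 28.3 and 28.2 on the rhTM arrays. All rhTM values of Fn1 lay above the saline values (log2 fold change 0.36 ± 0.14, SE), yet in the table the log2 fold change was 0.0033. Acta2, smooth muscle actin, had a log2 fold change of -0.35, and 0.09 in the table. It was -0.18 without saline replicate 1, -0.64 without saline replicate 3 and -0.19 without rhTM replicate 1. The summed signal of 10 fibroblast markers moved with Fn1, from 34.4 to 35.5 on the saline arrays and from 38.9 to 41.2 on the rhTM arrays, with 8 of 10 higher (median 0.17, and -0.05 in the table). Markers of smooth muscle and pericytes summed to 64.0 and 69.6 on the slide 2 arrays and to 35.7 to 48.2 on the others. The part of these cells in the Fn1 and Acta2 values was not tested.

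**Figure D4:**
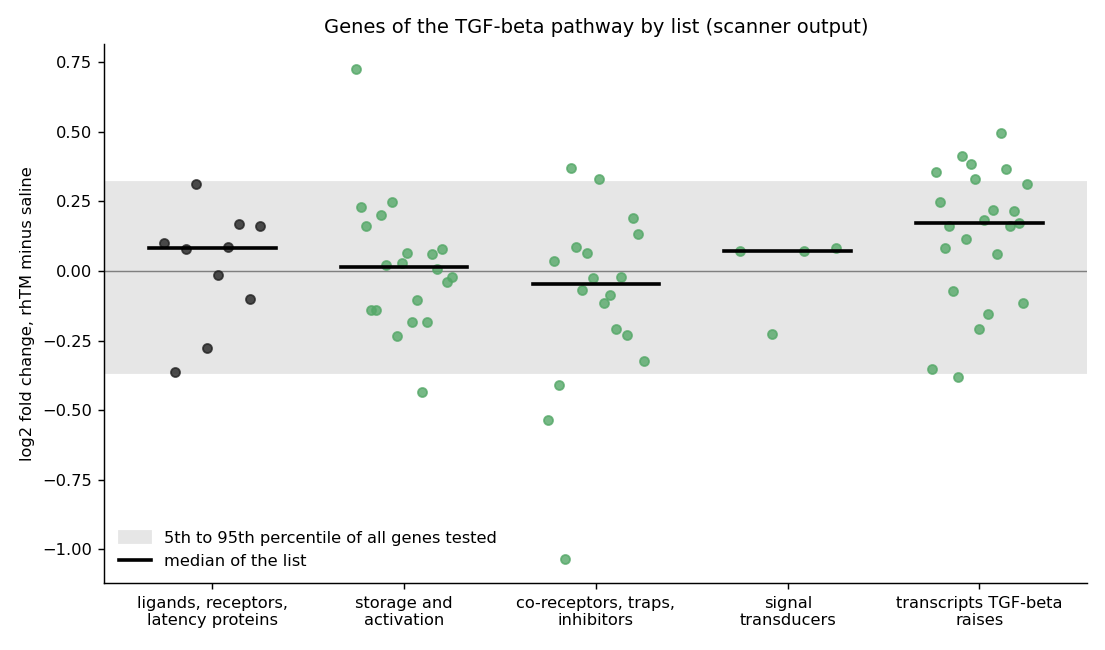
Log2 fold change, rhTM minus saline in the scanner files, of each gene tested (points) in the 10 genes (black) and the 4 pathway lists (green), with the median of each list as a line; the grey band spans the 5th to 95th percentile of all genes (-0.37 to 0.32). All 10 of the ligand, receptor and latency genes lie within the band, and the medians run from -0.05 to 0.17.

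**Figure D5:**
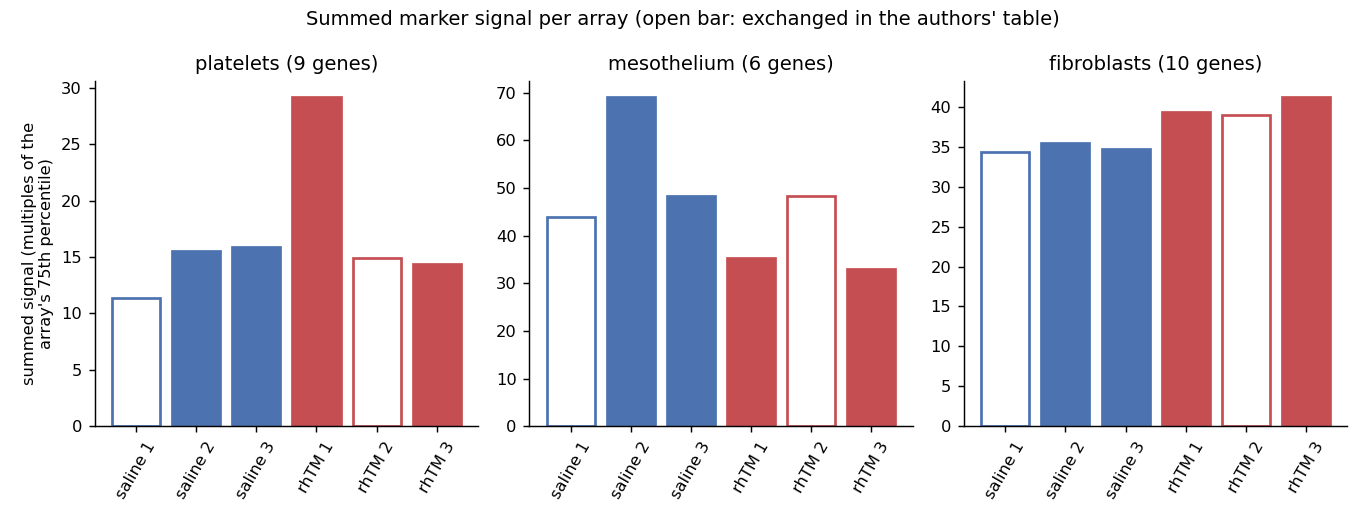
Summed signal of platelet, mesothelial and fibroblast markers on each array, in multiples of the array's 75th percentile; blue bars are saline, red bars rhTM and open bars the 2 exchanged arrays. The platelet sum of rhTM replicate 1 is 29.1 and the mesothelial sum of saline replicate 2 is 69.0, each the highest of the 6 arrays.

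Arrays of this size were simulated with independent noise for each gene on each array and with 200 changed genes. Of 100 genes given a change of 1 log2 unit limma recovered 49%, and of 100 given 2 log2 units it recovered 87%. With 3 mice per group, changes of either size could thus go uncalled. Shared array or slide effects were not simulated, so these rates may not hold for the arrays here.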

How the data were processed

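Lung RNA of 3 saline and 3 rhTM mice was hybridised in 1 colour to Agilent SurePrint G3 Mouse arrays. The authors deposited scanner output with processed intensity values on a linear scale, background-corrected by Feature Extraction 10.7.3.1 (9.1 in the submitters' processing notes) and not scaled between arrays, and a table of the same intensity values. The RNA kit is named as RNeasy in the labels and simplyRNA in the methods. Control spots were left out, spots of a probe averaged and 398 probes with outlier flags dropped. Log2 signals were centred on each array's 75th percentile. Probes were matched by accession to a RefSeq gene table (GRCm38.p6): 32803 of 56605 probes matched 1 gene each, for 22815 genes. Probe positions are not given, since the design of the array rests on another build, and the only coordinates are those of RefSeq promoters. Genes were tested where every array of 1 or both groups was well above background, by the brightest probe, with limma 3.58.1 in R 4.3.3 (lmFit, eBayes) and Benjamini-Hochberg adjustment over all genes at 0.05. Exact permutation tests were two-sided. Each sample is labelled as a separate mouse. The replicate numbers were not treated as pairs in the main fit. Pathway genes named are those with the smallest unadjusted p of each list and direction. The fits were tested on simulated data. The genes, lists and alternatives were chosen with earlier results of these data known. Depth does not apply to arrays, whose number limits the precision. Alternatives were the authors' table, normexp (offset 50, on median spot signals), quantile scaling, another percentile base, no or a stricter filter, mean of probes, slide and replicate blocks, the methods' t-test and arrays left out. That t-test was judged at an adjusted p of 0.05 among the alternatives and also at the fold (at least 2 or below 0.5) and unadjusted p (0.01) that the methods state.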

Additional observations from a re-analysis of the deposited data

How the results depend on the processing

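None of the 10 genes was called under any of the 24 alternatives, of which the table's slide block rests on a single rhTM array. The all-gene count of 0 became 1 without both exchanged arrays and 432 in the table under a slide block, and leaving out single arrays gave 0 to 591 (3 without saline replicate 1, 2 without rhTM replicate 1, 591 without rhTM replicate 1 in the table). Genes among the 10 without overlap, 0 in the scanner output, numbered 1 in the table, with normexp or under the table's slide block, 5 without both exchanged arrays, and 1 to 4 with single arrays left out, where fewer arrays overlap less by construction. Log2 fold changes of Tgfb2, Tgfbr2, Tgfbr3 and Ltbp1 kept their sign throughout, though the filters, the scanner files' blocks and the t-test leave a fold change as it is. That of Tgfbr1 reversed in the table (-0.019) and with the mean of its probes (-0.0094), and that of Ltbp2 in the table (-0.24), under its slide block (-0.80) and without both exchanged arrays (-0.053). With single arrays left out, in either assignment, values crossed 0 in 6 genes, from -0.40 to 0.070 for Tgfb1, -0.55 to 0.086 for Tgfb3, -0.11 to 0.14 for Tgfbr1, -0.53 to 0.55 for Ltbp2, -0.069 to 0.81 for Thbs1 and -0.32 to 0.095 for Tgfbi. They ran from -0.68 to -0.049 for Tgfb2, 0.10 to 0.23 for Tgfbr2, 0.029 to 0.20 for Tgfbr3 and 0.033 to 0.15 for Ltbp1. The causes were not tested. As the scanner files assign the arrays, deviations of same-numbered arrays correlated at -0.30, 0.44 and -0.45. These few values, mixed in sign, cannot settle whether the numbers paired the mice. A replicate block called 0 genes and moved no log2 fold change. Normexp used median spot signals. With 3 arrays per group, the widest interval was that of Thbs1, -0.53 to 1.15 log2 units.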
